A study of Mus musculus with 24 samples.

Results

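The NRF2 and glutathione-thioredoxin defence was followed in bone marrow-derived macrophages (BMDMs) through 10 genes, Nfe2l2, Keap1, Slc7a11, Gclc, Gclm, Gsr, Txnrd1, Prdx1, Srxn1 and Sod2. The genes were chosen by name, with earlier results of these data known, and so were the gene lists used below. Each matched 1 of the 55421 gene identifiers of the count table, and all 10 passed the filter on low counts that left 16593 genes for testing. AhR, the aryl hydrocarbon receptor, switches on genes when it binds small molecules from food, smoke or microbes, and the question was how its loss changes gene expression in macrophages that resemble those of the lung alveoli.

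Messenger RNA of 24 libraries was sequenced, 6 in each of 4 groups, namely wildtype (WT) and AhR-KO BMDMs, each unstimulated or stimulated with LPS, the bacterial ligand of TLR4. The animals were young adult C57/B6/J WT and B6.129-Ahr tm1Bra/J mice, for which the methods name both sexes, and the knockout is constitutive. All cultures received GM-CSF at 10 ng/ml and TGF-β at 2 ng/ml, LPS was given at 97 EU/ml from day 6 for 24 h, and the protocol, written for all samples, ends with 5 µM of the Ca2+ ionophore A23187 for 10 min. Each group holds 6 animals, all from 1 experiment, and which unstimulated and LPS-treated cultures share an animal is not given in the sources used here. The groups are called by their labels throughout.

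NRF2, encoded by Nfe2l2, is a transcription factor that KEAP1 holds in the cytoplasm and hands to a ubiquitin ligase for destruction. Oxidants and electrophiles modify cysteines of KEAP1, so that NRF2 escapes, enters the nucleus with a small MAF protein and binds antioxidant response elements. Because this control acts on the protein, the mRNA of Nfe2l2 does not measure NRF2 activity. Target enzymes import cystine, make and recycle glutathione, and reduce thioredoxin and peroxides. In activated macrophages they meet the oxidants made by the phagocyte NADPH oxidase and by mitochondria.

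Positions are those of mm10. Nfe2l2 (ENSMUSG00000015839) lies at chr2:75675513-75704641 on the minus strand and Keap1 (ENSMUSG00000003308) at chr9:21229730-21239361 on the minus strand. Slc7a11 (ENSMUSG00000027737), the cystine-glutamate antiporter xCT, lies at chr3:49892526-50443614 on the minus strand. Gclc (ENSMUSG00000032350, chr9:77754535-77794485, plus strand) and Gclm (ENSMUSG00000028124, chr3:122245557-122270732, plus strand) encode the catalytic and the modifier subunit of glutamate-cysteine ligase, the rate-limiting enzyme of glutathione synthesis. Gsr (ENSMUSG00000031584, chr8:33652523-33698163, plus strand) encodes glutathione reductase and Txnrd1 (ENSMUSG00000020250, chr10:82833951-82897712, plus strand) the cytosolic thioredoxin reductase. Prdx1 (ENSMUSG00000028691, chr4:116685544-116700822, plus strand) encodes a peroxidase that thioredoxin reduces, and Srxn1 (ENSMUSG00000032802, chr2:152105516-152111376, plus strand) encodes sulfiredoxin, which restores overoxidized peroxiredoxins. Sod2 (ENSMUSG00000006818, chr17:13006846-13040063, plus strand) encodes the manganese superoxide dismutase of mitochondria, which in macrophages is also a known target of NF-κB. No member lies on chromosome 12, which carries Ahr. A gene on the same strand overlaps Nfe2l2, Slc7a11, Gclm, Gsr and Txnrd1, and over all libraries these overlapping genes had between 6 and 960 counts. Fragments that overlap several genes were not counted, so these totals do not show how many fragments the members lost.

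The DNA in front of the transcription start is shown for the 3 members whose start regions carried a match that can be read with the results below. Srxn1 differed between genotypes in both states, Prdx1 had the highest mRNA level, and Gclm had lower mRNA after LPS. The bases are RefSeq sequence of GRCm38.p6, 5′ to 3′ in the direction of transcription and in front of the annotated gene, at chr2:152105274-152105515 for Srxn1, chr4:116685349-116685543 for Prdx1 and chr3:122245307-122245556 for Gclm, all plus strand. Capitals mark matches to the core of the antioxidant response element (TGACNNNGC, either strand) or to the AP-1 element (TGANTCA), which binds FOS and JUN proteins.
Srxn1: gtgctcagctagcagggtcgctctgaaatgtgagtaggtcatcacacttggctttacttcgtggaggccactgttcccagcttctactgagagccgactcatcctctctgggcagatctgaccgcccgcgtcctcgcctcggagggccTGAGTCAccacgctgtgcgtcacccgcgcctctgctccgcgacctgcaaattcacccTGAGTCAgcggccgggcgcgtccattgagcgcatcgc
Prdx1: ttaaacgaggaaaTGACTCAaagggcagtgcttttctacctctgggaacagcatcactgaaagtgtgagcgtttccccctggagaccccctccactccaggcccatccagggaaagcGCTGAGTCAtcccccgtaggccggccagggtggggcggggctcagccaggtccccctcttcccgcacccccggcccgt
Gclm: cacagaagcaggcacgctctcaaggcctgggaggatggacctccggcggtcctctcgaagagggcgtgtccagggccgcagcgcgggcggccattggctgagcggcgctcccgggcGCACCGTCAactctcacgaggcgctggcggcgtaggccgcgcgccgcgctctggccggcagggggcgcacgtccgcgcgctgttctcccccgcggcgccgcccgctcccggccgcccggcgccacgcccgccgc

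Both capital runs of Srxn1 are AP-1 matches, at 102 and 45 bases before the RefSeq start. Read on into the next bases, the run at 45 bases is TGAGTCAGC. It departs from the antioxidant response element core searched here only by G for C. A core that also allows this G was not searched for. In Prdx1 the run nearest to the gene holds an antioxidant response element core on the minus strand, starting 133 bases before the start, that overlaps an AP-1 match, and the distal run at 237 bases is an AP-1 match. The run of Gclm is an antioxidant response element core on the minus strand, 134 bases before the start. Of the 8 members with an entry in the promoter table, Nfe2l2 also held an antioxidant response element core within 250 bases, and so did 1 of 3 start regions of Txnrd1, whereas Slc7a11, Keap1 and Sod2 held no match in these windows. The core of the dioxin response element (TNGCGTG), the sequence bound by AhR with ARNT, was found in none of the 8. Among 32851 promoter windows of the same length, 10.2% held the antioxidant response element core, 6.75% the AP-1 element and 4.1% the dioxin response element core. These matches describe letters and not binding.

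Depth ranged from 45106052 to 76992663 counts per library. The scaling factors (TMM, trimmed mean of M-values) lay between 0.704 and 0.875 in LPS-stimulated AhR-KO and between 0.804 and 1.3 in all other libraries. The libraries differed in how strongly counts grew with gene length. This slope (log2 CPM regressed on log2 length) lay between 0.14 and 0.74. It was lowest in library 19 (AhR-KO, unstimulated) and library 33 (WT, unstimulated), at 0.14 and 0.17. Next came libraries 39 (0.24) and 37 (0.27). The slope ran from 0.14 to 0.56 in libraries 17 to 24, from 0.62 to 0.74 in libraries 25 to 32, and from 0.17 to 0.57 in libraries 33 to 40. The mean slope was 0.47 in WT and 0.49 in AhR-KO without stimulation (exact permutation test, two-sided, p = 0.91) and 0.53 and 0.49 after LPS (p = 0.7). Libraries 34 and 38, both WT, had 75 and 251 counts on Y-linked genes, whereas the others, all AhR-KO libraries among them, had 8818 to 15349.

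Ahr, the targeted gene, was counted over all of its annotated exons, so its level does not check the deletion, and after LPS it went against the label. Mean Ahr CPM (counts per 1000000, scaled by TMM) was 28.3 in WT and 7.42 in AhR-KO without stimulation, a log2 fold change of −1.93 (SE 0.36, edgeR adjusted p = 9.7e-04). After LPS it was higher in AhR-KO, with 43.1 against 16.8 CPM (log2 fold change 1.36, SE 0.35, edgeR adjusted p = 0.011). Ahrr, the AhR repressor and a known AhR target, lay between 13.3 and 66.1 CPM in the unstimulated WT libraries and between 0.113 and 1.05 in the AhR-KO ones. After LPS the ranges were 27.2 to 96.6 and 0 to 0.421 CPM. Every library labelled AhR-KO was thus below every WT library for this target.

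Macrophage markers were present in every group. All 8 macrophage markers (such as Adgre1, Csf1r and Lyz2) and all 8 alveolar macrophage markers (such as Siglecf, Pparg and Car4) had a mean of at least 1 CPM in each group. Of the macrophage markers, 1 was lower in AhR-KO without stimulation, and 1 was higher and 1 lower after LPS. Of the alveolar macrophage markers, 2 were higher in AhR-KO in each state, and LPS lowered 5 and raised 1 in either genotype. Over all genes tested, 1.83% were higher and 4.29% lower in AhR-KO without stimulation, 4.33% and 8.3% after LPS, and LPS lowered 18.3% in WT and 22.6% in AhR-KO. The alveolar markers summed to 6850 to 9330 CPM in WT and 8130 to 11200 in AhR-KO without stimulation, and to 3770 to 8200 and 7130 to 11000 CPM after LPS. Markers of other myeloid cells differed by genotype as well. Of 7 neutrophil markers tested, 7 were lower in AhR-KO without stimulation and 5 after LPS, and their summed level ran from 1510 to 12000 CPM in WT against 228 to 748 in AhR-KO without stimulation, and from 657 to 8050 against 130 to 974 after LPS. Of 6 dendritic cell markers tested, 4 were lower and 1 higher without stimulation and 6 lower after LPS, with sums of 38.4 to 123 against 9.17 to 16 CPM and of 567 to 2460 against 101 to 894 CPM. After LPS these sums were mostly Ccr7, with 541 to 2410 CPM in WT and 96.5 to 884 CPM in AhR-KO. Mast cell and basophil markers were lower for 4 and 5 of 6, with sums of 6.13 to 23.5 against 1.98 to 4.19 and of 16.2 to 52.2 against 4.18 to 11.4 CPM. B cell markers summed to 8.81 to 40.1 CPM in unstimulated WT and at most 2.04 CPM elsewhere, T and NK cell markers to at most 1.58, erythroid markers to at most 0.931 and fibroblast markers to at most 33.4 CPM. Of these lists, 1 B cell marker was lower in AhR-KO without stimulation, and after LPS 1 T and NK cell marker and 1 fibroblast marker were higher, the latter Dcn with 0.822 CPM in WT and 11.9 in AhR-KO (fibroblast sums of 2.2 to 16.9 against 12.6 to 33.4 CPM). Markers at 0 in all 6 libraries of a group included Mcpt4 in both unstimulated groups, Cd3e and Trac in unstimulated WT, Ncr1 in unstimulated AhR-KO, and Cd207, Cd3e, Cd3d and Nkg7 in LPS-stimulated AhR-KO. The part of these cells in the genotype differences below was not tested, and in bulk RNA fewer cells of a type and less RNA per cell cannot be told apart.

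The mRNA of Srxn1 was higher in AhR-KO than in WT in both states, that of Slc7a11 was called higher without stimulation and that of Gclc after LPS. The other 7 members passed the test for genotype in neither state. Without stimulation 2 of the 10 members were called at an adjusted p of at most 0.05, both higher in AhR-KO, where 6.12% of all genes tested were called, 1.83% higher and 4.29% lower. After LPS 2 members were called, again both higher, where the shares of all genes were 12.6% and 4.33%, and 8.3% were lower. No member passed the study's threshold for a differentially expressed gene, which adds a fold change of at least 2 and which 4.48% of all genes passed without stimulation and 8.36% after LPS. The median log2 fold change of the 10 was 0.25 without stimulation and 0.28 after LPS, against −0.01 and −0.05 over all genes. Both genotype comparisons and the comparisons with LPS share groups, so their values are given side by side.

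**Figure D1:**
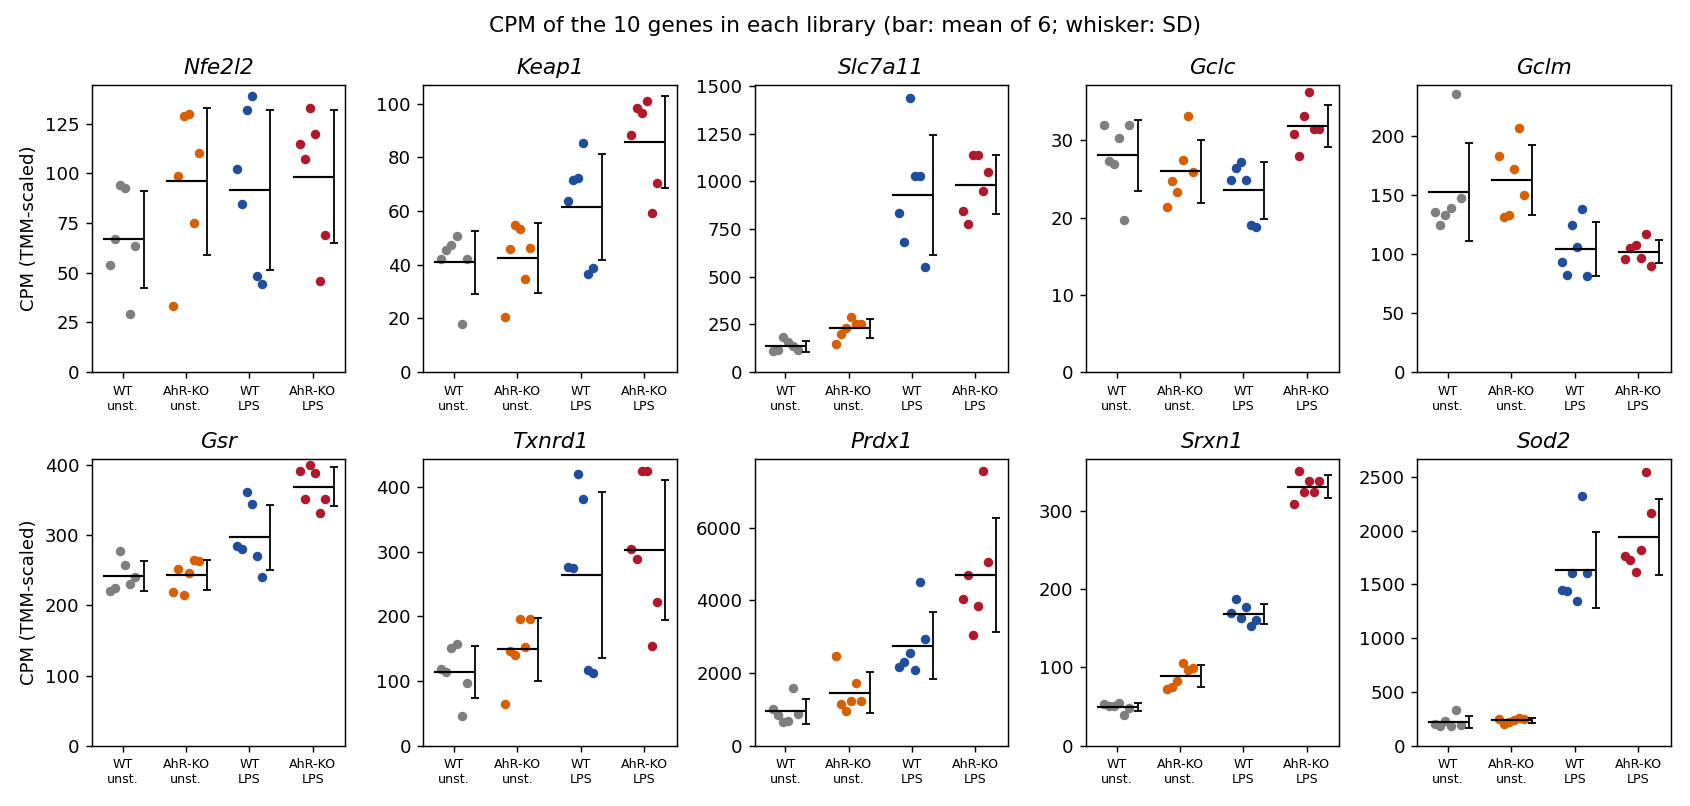
CPM (counts per 1000000, TMM-scaled, linear axis from 0) of the 10 genes in the 24 libraries, by genotype and stimulation (unst., unstimulated). Points are libraries, bars the mean of 6 and whiskers the SD. The AhR-KO points of Srxn1 lie above all WT points in both states, whereas those of Nfe2l2 and Txnrd1 spread widely within each group.

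The mRNA of sulfiredoxin was higher in AhR-KO with and without LPS. Srxn1 ran from 39.8 to 54.0 CPM (median 50.6) in unstimulated WT and from 72.4 to 106 CPM (median 90.0) in unstimulated AhR-KO BMDMs. After LPS it ran from 153 to 188 CPM (median 166) in WT and from 309 to 351 CPM (median 331) in AhR-KO. The groups did not overlap in either state, which held for 1.71% of all genes tested in this direction without stimulation and for 2.59% after LPS. The log2 fold change was 0.84 (SE 0.11, edgeR adjusted p = 1.1e-05) without stimulation and 0.97 (SE 0.11, edgeR adjusted p = 9.6e-07) after LPS, 1.8-fold and 1.96-fold. Within the 3 runs of 8 consecutive library numbers, each of which holds 2 libraries of every group, the difference was 0.5, 0.84 and 1.15 without stimulation and 0.88, 0.96 and 1.07 after LPS. LPS itself raised Srxn1 by 1.77 (SE 0.11, edgeR adjusted p = 1.2e-11) in WT and by 1.9 (SE 0.11, edgeR adjusted p = 1.5e-12) in AhR-KO on the log2 scale. The difference between these LPS effects was 0.13 (SE 0.15, edgeR adjusted p = 0.94), with bounds of −0.17 and 0.43 at 2 SE.

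The mRNA of the cystine antiporter was higher in AhR-KO at rest. Slc7a11 ran from 109 to 183 CPM (median 125) in unstimulated WT and from 149 to 290 CPM (median 241) in unstimulated AhR-KO BMDMs. Of the AhR-KO libraries, 5 lay above every WT library and library 19 lay within the WT range. The log2 fold change was 0.76 (SE 0.2, edgeR adjusted p = 0.022), and 0.63, 0.62 and 1.01 in the 3 runs. This call was lost when library 17, 18, 28 or 34 was left out (edgeR adjusted p = 0.065, 0.061, 0.065 and 0.059) or when total library size replaced TMM (adjusted p = 0.082). After LPS the range was 551 to 1440 CPM (median 931) in WT and 778 to 1140 CPM (median 1000) in AhR-KO, and the AhR-KO range lay inside that of WT. The log2 fold change after LPS was 0.09 (SE 0.2, edgeR adjusted p = 0.92), and −0.14 with total library size.

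LPS raised Slc7a11 in both genotypes without overlap, by 2.78 (SE 0.22, edgeR adjusted p = 4.6e-10) in WT and by 2.11 (SE 0.21, edgeR adjusted p = 1.5e-08) in AhR-KO on the log2 scale, 6.86-fold and 4.3-fold. The difference between these effects was −0.67 (SE 0.29, unadjusted p = 0.027, edgeR adjusted p = 0.26) and was not called. Its adjusted p was 0.044 with these runs of 8 as a factor, and between 0.044 and 0.46 over all alternatives. Slc3a2, the partner chain of the antiporter, was not called by genotype in either state.

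The mRNA of Gclc, which encodes the catalytic subunit of glutamate-cysteine ligase, was higher in AhR-KO after LPS. In unstimulated cells Gclc ran from 19.7 to 32 CPM (median 28.8) in WT and from 21.4 to 33.2 CPM (median 25.3) in AhR-KO, and the ranges overlapped. After LPS the ranges were 18.8 to 27.2 CPM (median 24.9) and 28 to 36.3 CPM (median 31.5), which do not overlap. The log2 fold change after LPS was 0.44 (SE 0.14, edgeR adjusted p = 0.037), 1.35-fold, against −0.11 (SE 0.14, edgeR adjusted p = 1) without stimulation. The call after LPS was a narrow one. It was lost when library 21, 23, 30, 31, 32, 37, 38, 39 or 40 was left out, with edgeR adjusted p between 0.052 for library 30 and 0.09 for library 38, when libraries 34 and 38 were left out together (0.094), without a filter on low counts (0.11) and with total library size (log2 fold change 0.2, adjusted p = 0.51).

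LPS changed Gclc by −0.25 (SE 0.14, edgeR adjusted p = 0.16) in WT and by 0.29 (SE 0.14, edgeR adjusted p = 0.087, −0.19 with total library size) in AhR-KO, and neither was called. In WT the change was −0.6 (adjusted p = 0.0079) with total library size, −0.29 (0.023) with the gene length slope as a covariate and −0.32 without library 33 (0.05) or without libraries 19 and 33 (0.039), each of which was called. In AhR-KO it was called by DESeq2 (0.32, adjusted p = 0.029), with DESeq2 size factors (0.32, 0.05), with the slope (0.29, 0.021) and without library 33 (0.3, 0.049) or 35 (0.37, 0.033). The difference between these effects was 0.55 (SE 0.19, unadjusted p = 0.0099, edgeR adjusted p = 0.14), with bounds of 0.16 and 0.93 at 2 SE. It was called by DESeq2 (adjusted p = 0.035), with the gene length slope as a covariate (0.0094) and without library 33 (0.044), and its adjusted p over all alternatives reached 0.53.

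The mRNA of Gclm, which encodes the modifier subunit, fell after LPS. It ran from 125 to 236 CPM (median 138) in unstimulated WT and from 81.9 to 138 CPM (median 99.7) in LPS-stimulated WT, where 4 of 6 LPS libraries lay below every unstimulated one. In AhR-KO the ranges were 132 to 207 CPM (median 161) and 89.9 to 117 CPM (median 101), without overlap. The log2 fold change with LPS was −0.55 (SE 0.16, edgeR adjusted p = 0.011) in WT and −0.67 (SE 0.17, edgeR adjusted p = 0.0018) in AhR-KO. Genotype changed Gclm by 0.09 (SE 0.16) without stimulation and by −0.03 (SE 0.16, 0.03 with a filter of at least 1 CPM) after LPS, with adjusted p of 1 and 0.97 from edgeR. At 2 SE these bounds were −0.24 and 0.42, and −0.36 and 0.3.

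The ratio of Gclm to Gclc counts within a library is free of library scaling. It was between 4.25 and 12 (median 4.6) in unstimulated WT, 5.36 and 8.53 (median 6.0) in unstimulated AhR-KO, 3.13 and 7.26 (median 4.3) in LPS-stimulated WT, and 2.66 and 3.75 (median 3.19) in LPS-stimulated AhR-KO BMDMs. With LPS the ratio dropped in AhR-KO from a geometric mean of 6.23 to 3.2 without overlap (log2 difference −0.96, exact permutation test, two-sided, p = 0.0022, adjusted p = 0.0087 over 8 ratio tests), where 0.00216 is the smallest p that 6 against 6 libraries allow. In WT it went from 5.39 to 4.4 (log2 difference −0.29, exact permutation adjusted p = 0.43), and the difference was −0.06 without library 33 and −0.44 without library 37. Between genotypes after LPS the log2 difference was −0.46 (exact permutation p = 0.024, adjusted p = 0.048), and 10 of 12 omissions of a library took the adjusted p above 0.05, up to 0.095 without library 29 or 40. Without stimulation it was 0.21 (exact permutation adjusted p = 0.45), and 0.44 with an adjusted p of 0.012 without library 33, which holds the ratio of 12. Libraries 33, 19 and 37, with the highest ratio of their groups, also had the lowest gene length slope of their groups. In LPS-stimulated AhR-KO the highest ratio was that of library 24, and library 39 had the lowest slope. The part of this slope in the ratio was not tested.

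**Figure D2:**
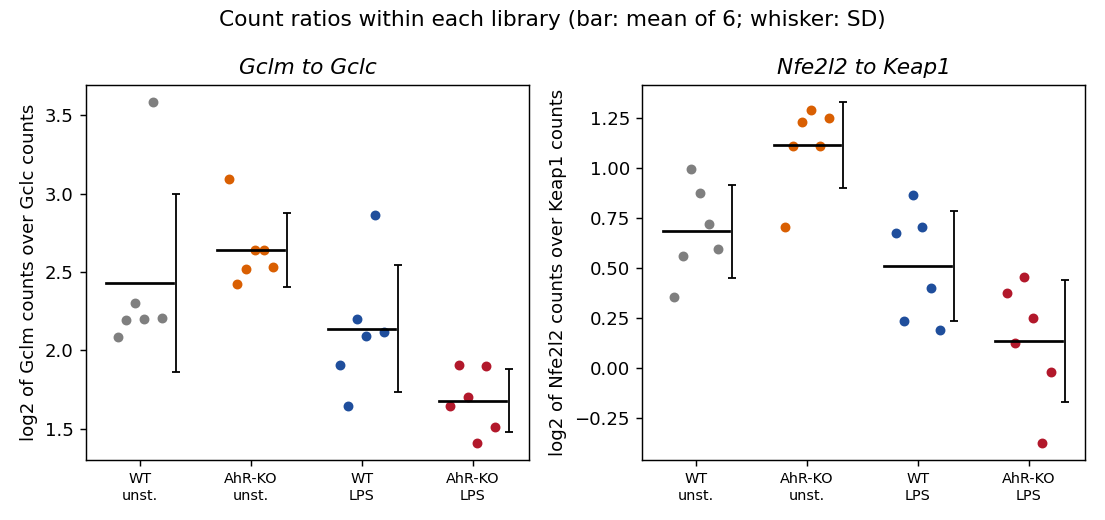
Log2 ratio of Gclm to Gclc counts and of Nfe2l2 to Keap1 counts (0.5 added to each count) in each library, by group. Points are libraries, bars the mean of 6 and whiskers the SD. In AhR-KO BMDMs both ratios were lower in all 6 LPS libraries than in all 6 unstimulated ones.

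Nfe2l2 spread widely within groups and was called in no comparison. It ran from 29.4 to 93.9 CPM (median 65.2) in unstimulated WT and from 33.3 to 130 CPM (median 104) in unstimulated AhR-KO. After LPS the ranges were 44.1 to 139 CPM (median 93.2) and 45.7 to 133 CPM (median 111), and all 4 ranges overlapped. The genotype log2 fold change was 0.52 (SE 0.35, edgeR adjusted p = 0.66) without stimulation and 0.1 (SE 0.35, edgeR adjusted p = 0.95, −0.13 with total library size) after LPS. LPS changed it by 0.46 (SE 0.35, edgeR adjusted p = 0.33) in WT and by 0.03 (SE 0.35, edgeR adjusted p = 0.95, −0.46 with total library size) in AhR-KO. The genotype effect at rest had bounds of −0.17 and 1.22 at 2 SE.

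Keap1 rose with LPS in AhR-KO BMDMs. It ran from 20.4 to 54.8 CPM (median 46.0) unstimulated and from 59.2 to 101 CPM (median 92.5) after LPS, without overlap, a log2 fold change of 1.01 (SE 0.26, edgeR adjusted p = 0.0026). With total library size it was 0.51 (adjusted p = 0.18), and the call was lost. In WT the ranges of 17.8 to 50.5 CPM (median 43.8) and 36.4 to 85.2 CPM (median 67.8) overlapped, and the change of 0.59 (SE 0.26, edgeR adjusted p = 0.078) was not called. It was called without library 19, 37 or 38 (adjusted p = 0.045, 0.033 and 0.039) and with the run of 8 as a factor (0.56, adjusted p = 0.025). The difference between the LPS effects was 0.42 (SE 0.36, edgeR adjusted p = 0.82). By genotype the log2 fold change was 0.06 (SE 0.26, edgeR adjusted p = 1) without stimulation, −0.03 with total library size, and 0.48 (SE 0.26, edgeR adjusted p = 0.29) after LPS.

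The ratio of Nfe2l2 to Keap1 counts was higher in AhR-KO at rest and fell with LPS in AhR-KO. It was between 1.28 and 1.99 (median 1.58) in unstimulated WT, 1.63 and 2.45 (median 2.26) in unstimulated AhR-KO, 1.14 and 1.82 (median 1.46) in LPS-stimulated WT, and 0.771 and 1.37 (median 1.14) in LPS-stimulated AhR-KO. AhR-KO was above WT at rest, with geometric means of 2.17 and 1.61 (log2 difference 0.43, exact permutation p = 0.013, adjusted p = 0.035). This call was lost without library 17, 18, 27, 28, 34 or 36, each with an adjusted p of 0.052. After LPS the order of the means was the other way, 1.1 in AhR-KO and 1.43 in WT, and the difference of −0.38 did not pass after adjustment (exact permutation p = 0.048, adjusted p = 0.076). LPS lowered the ratio in AhR-KO without overlap (log2 difference −0.98, exact permutation p = 0.0022, adjusted p = 0.0087), whereas in WT it changed by −0.17 (exact permutation adjusted p = 0.34). Libraries 19 and 39, with the lowest gene length slope of the AhR-KO groups, held the lowest ratios of these groups, 1.63 and 0.771, which was not so for the lowest slopes in WT, and the part of the slope was not tested.

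Prdx1 and Sod2 rose with LPS in both genotypes. Prdx1 ran from 657 to 1600 CPM (median 860) in unstimulated and from 2090 to 4510 CPM (median 2430) in LPS-stimulated WT, and from 964 to 2480 CPM (median 1220) and 3040 to 7550 CPM (median 4370) in AhR-KO. LPS raised it without overlap in both genotypes, by 1.55 (SE 0.27, edgeR adjusted p = 7.3e-05) in WT and 1.69 (SE 0.27, edgeR adjusted p = 2.0e-05) in AhR-KO on the log2 scale. The genotype ranges overlapped in both states, with 3 of 6 AhR-KO libraries above every WT library after LPS. The genotype log2 fold change was 0.63 (SE 0.27, edgeR adjusted p = 0.24) at rest and 0.77 (SE 0.27, edgeR adjusted p = 0.064) after LPS. With the run of 8 as a factor both were called, at 0.67 (adjusted p = 0.041) and 0.76 (0.011). The value after LPS was also called by DESeq2 (adjusted p = 0.03), by limma-voom (0.049), and without library 19, 31, 33 or 37 (0.041, 0.04, 0.041 and 0.018), and over all alternatives its adjusted p reached 0.19.

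Sod2 ran from 184 to 331 CPM (median 197) in unstimulated WT and from 204 to 257 CPM (median 242) in unstimulated AhR-KO. LPS took it to 1350 to 2320 CPM (median 1530) in WT and 1620 to 2550 CPM (median 1790) in AhR-KO and thus above all unstimulated libraries. The log2 fold change was 2.89 (SE 0.17, edgeR adjusted p = 6.3e-12) in WT and 3.04 (SE 0.17, edgeR adjusted p = 1.2e-12) in AhR-KO, 7.4-fold and 8.21-fold. By genotype it was 0.1 (SE 0.16, edgeR adjusted p = 1) and 0.25 (SE 0.16, edgeR adjusted p = 0.41), with bounds after LPS of −0.07 and 0.57 at 2 SE.

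The mRNAs of both reductases were called higher with LPS, that of Gsr in WT by a narrow margin. Gsr ran from 221 to 277 CPM (median 236) in unstimulated WT and from 215 to 265 CPM (median 249) in unstimulated AhR-KO, and after LPS from 241 to 362 CPM (median 283) and from 332 to 400 CPM (median 371). LPS raised it in AhR-KO without overlap (log2 fold change 0.6, SE 0.11, edgeR adjusted p = 7.2e-05). In WT the ranges overlapped and the change was 0.3 (SE 0.11, edgeR adjusted p = 0.032), a call lost without library 17, 18, 29, 30 or 34 (adjusted p = 0.075, 0.073, 0.097, 0.087 and 0.057), without a filter on low counts (0.11), with the filter of at least 1 CPM (0.08) and in a fit of only the 12 libraries compared (0.17). With total library size the LPS effect on Gsr was −0.05 in WT and 0.12 (adjusted p = 0.52) in AhR-KO. The genotype log2 fold change after LPS was 0.31 (SE 0.11, edgeR adjusted p = 0.062), with 3 of 6 AhR-KO libraries above every WT library. It was called with the run of 8 as a factor (0.32, adjusted p = 0.018), by DESeq2 (0.0038), by limma-voom (0.04) and without library 29 (0.024) or 30 (0.043), and over all alternatives its adjusted p reached 0.76. Without stimulation it was 0.01 (SE 0.11, edgeR adjusted p = 1), and −0.08 with total library size.

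Txnrd1 ran from 46.6 to 157 CPM (median 116) and from 113 to 421 CPM (median 276) in WT without and with LPS, and from 64.3 to 196 CPM (median 150) and 154 to 425 CPM (median 297) in AhR-KO. The unstimulated and LPS ranges overlapped in both genotypes. LPS raised it by 1.21 (SE 0.35, edgeR adjusted p = 0.0077) in WT and by 1.02 (SE 0.35, edgeR adjusted p = 0.019) in AhR-KO, and with total library size these became 0.87 (adjusted p = 0.083) and 0.53 (0.28). By genotype it was 0.39 (SE 0.34, edgeR adjusted p = 0.86) and 0.2 (SE 0.34, edgeR adjusted p = 0.86), and the second was −0.05 with total library size. Leaving out 1 library moved the first between 0.23 (library 33) and 0.55 (library 19) and the second between 0.03 (library 38) and 0.38 (library 29).

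In all, LPS raised 6 members and lowered 1 in WT, where 38% of all genes tested were called, 19.7% higher and 18.3% lower. In AhR-KO it raised 7 and lowered 1, where the shares were 44.6%, 22.1% and 22.6%. A rise without overlap was seen for 4 members in WT and 6 in AhR-KO, against 11.4% and 14.4% of all genes. The median log2 fold change of the 10 was 0.9 in WT and 1.02 in AhR-KO, against 0.03 and −0.03 over all genes. No member passed the test of the difference between the LPS effects, which 4.3% of all genes passed. At an unadjusted p under 0.05 there were 2, Slc7a11 and Gclc, against 13.5% of all genes. DESeq2 called 1 against 6.78% of all genes, and limma-voom none against 4.28%.

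With total library size the median over all genes moved to −0.09 and −0.26 for genotype without stimulation and after LPS, and to −0.31 and −0.52 for LPS in WT and AhR-KO. The share called higher then fell to 2.43% of 16.9% called for genotype after LPS, 13.2% of 43.7% for LPS in WT and 14.1% of 52.5% for LPS in AhR-KO. Srxn1 was still called in these 4 comparisons, at 0.76 and 0.75 for genotype and 1.42 and 1.41 for LPS.

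**Figure D3:**
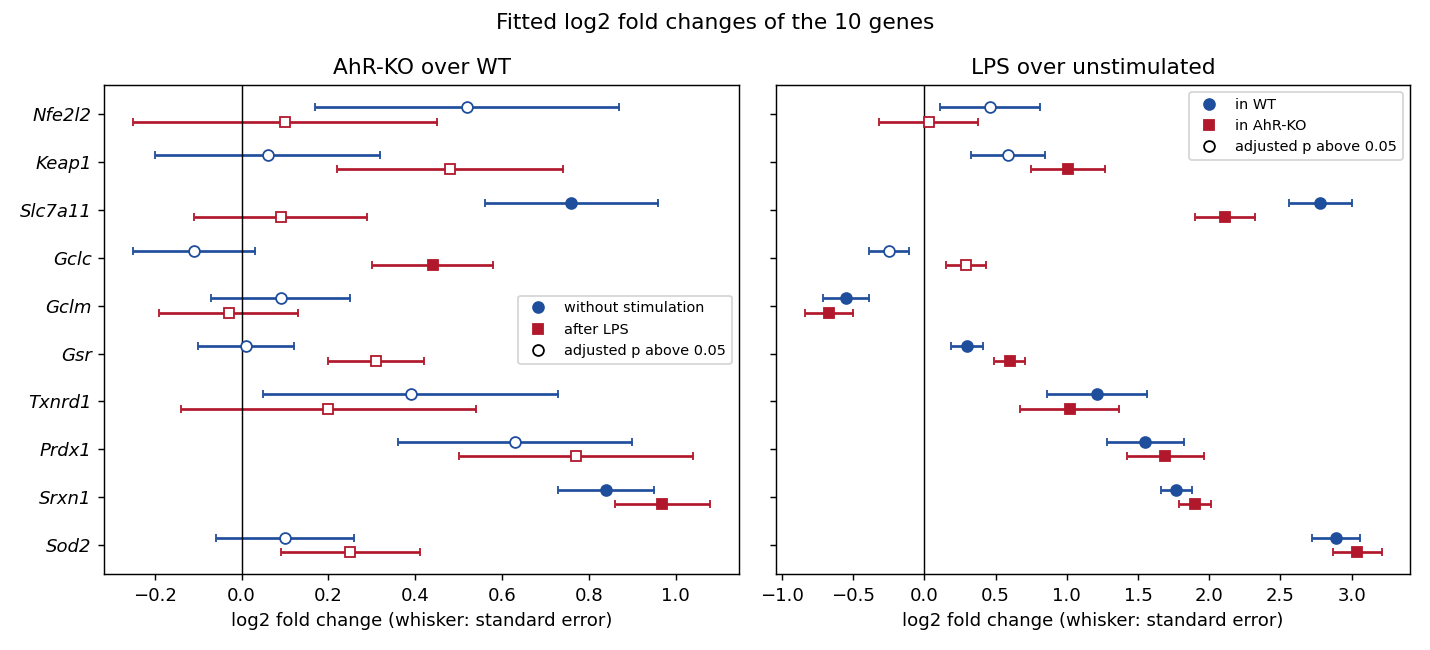
Log2 fold changes of the 10 genes fitted by edgeR, with whiskers of 1 SE, for AhR-KO over WT (left) and LPS over unstimulated (right). Filled symbols had an adjusted p of at most 0.05. Srxn1 is filled in all 4 comparisons, Slc7a11 and Sod2 reach the largest LPS effects, and Gclm lies below 0 for LPS in both genotypes.

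Per kilobase of gene length, Prdx1 was the most abundant member in each group, with 310, 481, 906 and 1550 CPM per kb in unstimulated WT, unstimulated AhR-KO, LPS-stimulated WT and LPS-stimulated AhR-KO. Gsr came second at rest with 87.9 and 88.5 CPM per kb. With LPS, Sod2 moved from 22.1 and 23.7 to 163 and 194 CPM per kb and passed Gsr, at 108 and 134. Srxn1 stood at 17.5, 31.5, 59.7 and 117 CPM per kb in the same order of groups and Slc7a11 at 9.71, 16.4, 66.6 and 70.7. Gclc had the lowest level in each group, between 6.25 and 8.46 CPM per kb, below Gclm at 16.2 to 25.9.

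The spread within groups moved with the gene length slope, most closely for Nfe2l2, Txnrd1, Keap1 and Prdx1. After the group mean was subtracted, log2 CPM of Nfe2l2 (within-group SD 0.67), Txnrd1 (0.66) and Keap1 (0.49) had a Pearson r of 0.98, 0.95 and 0.93 with the slope over the 24 libraries, and Prdx1 (0.46) an r of −0.91. The low-slope libraries thus read low for these 3 genes and high for Prdx1. For Gsr, Sod2, Slc7a11, Gclc, Srxn1 and Gclm r was 0.68, −0.67, 0.58, 0.56, 0.52 and −0.4, and the SD of Srxn1 and Gsr was 0.15, the smallest of the 10. The points of all members are the same 24 libraries, which differ in depth, and r is given as a description.

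**Figure D4:**
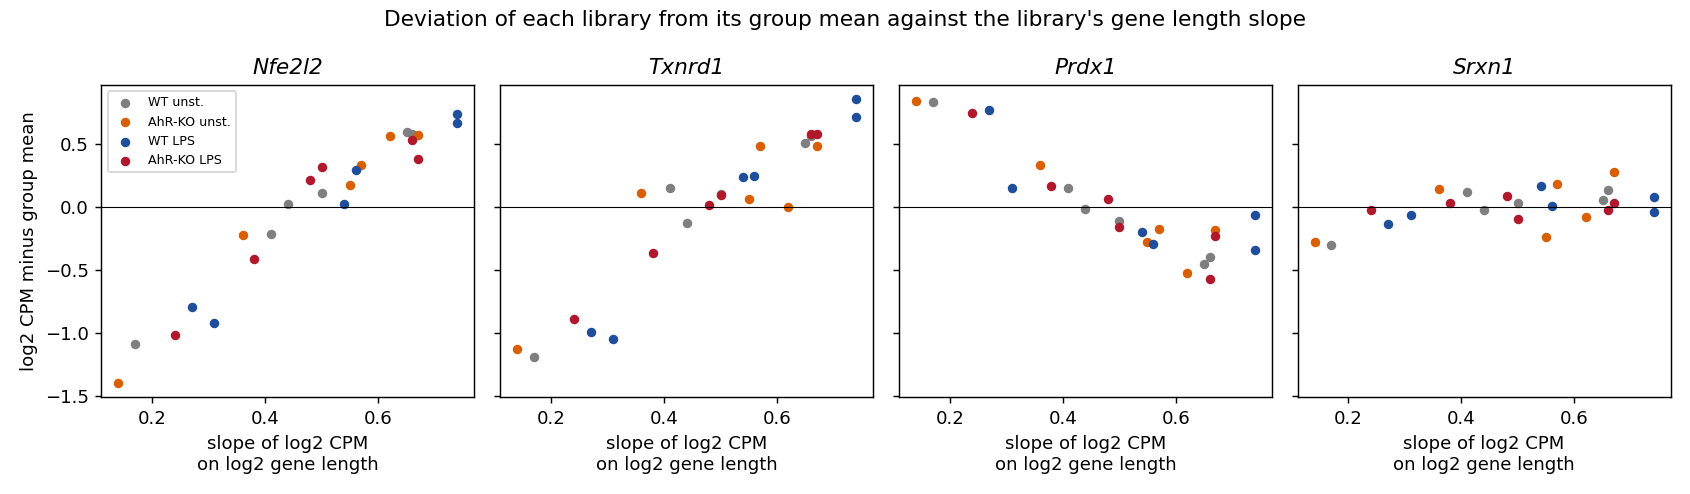
Log2 CPM minus the group mean (y axis) against the slope of log2 CPM on log2 gene length (x axis) in the 24 libraries, for Nfe2l2, Txnrd1, Prdx1 and Srxn1. Points are libraries coloured by group. Nfe2l2 and Txnrd1 climb with the slope, Prdx1 declines, and Srxn1 varies within a narrow band.

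With the slope as a covariate more members were called, and so were more genes of the table. Without stimulation 5 members were called against 17.1% of all genes, with Nfe2l2 at 0.45 (adjusted p = 3.8e-04), Prdx1 at 0.66 (1.0e-04) and Txnrd1 at 0.39 (0.028) added to Srxn1 and Slc7a11. After LPS 7 were called against 35.3%, with Keap1 at 0.62 (3.8e-05), Prdx1 at 0.66 (4.5e-05), Gsr at 0.34 (5.0e-04), Nfe2l2 at 0.3 (0.0081) and Txnrd1 at 0.42 (0.0098) added to Srxn1 and Gclc. All of these were higher in AhR-KO. LPS changed 10 members in WT against 61.6% of all genes and 9 in AhR-KO against 65.2%, and the difference between the LPS effects was called for Keap1 (0.61, adjusted p = 0.0042), Gclc (0.58, 0.0094) and Gsr (0.33, 0.021), 3 of 10 against 17.3%.

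Several members varied together within groups. Over the 24 libraries, after group means were subtracted, Nfe2l2 and Keap1 (r = 0.95), Nfe2l2 and Txnrd1 (0.94) and Keap1 and Txnrd1 (0.92) varied together, and once the slope was removed as well r was 0.45, 0.28 and 0.29. Gclc and Txnrd1 then had an r of 0.77 (0.74 before), Prdx1 and Sod2 0.58 (0.79) and Slc7a11 and Gsr 0.58 (0.74). The highest r after removal of the slope was that of Slc7a11 and Sod2, 0.88 (0.15 before), and Gclm had an r of 0.76 with Slc7a11 (0.33 before) and with Prdx1 (0.66 before). Slc7a11 and Prdx1 went from −0.3 to 0.67. Over all groups, the pattern of Srxn1 across the 24 libraries was close to those of Lrp11 (r = 0.983) and Msantd3 (0.98) among 9949 genes with a mean of at least 5 CPM. The most similar genes were for Slc7a11 Cxcl3 (0.982), Gng12 (0.978) and Slc39a14 (0.975), for Sod2 Clec4e (0.996), Cxcl2 (0.995) and Slc3a2 (0.995), for Nfe2l2 Gnptab (0.976), Adam17 (0.974) and Vcp-rs (0.974), and for Gclm Ap3m1 (0.926), Slc25a39 (0.92) and Dpagt1 (0.918). The differences between the 4 groups enter these r values, and the libraries are shared by all genes.

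Among the partners and regulators of NRF2, Maff was higher in AhR-KO after LPS. The list held 15 genes, of which 14 were tested. Without stimulation none was called by edgeR, against 6.12% of all genes. After LPS 2 were higher and 1 lower in AhR-KO, against 4.33% and 8.3% of all genes. LPS raised 7 and lowered 2 in WT, against 19.7% and 18.3% of all genes, and raised 6 and lowered 2 in AhR-KO, against 22.1% and 22.6%. Maff, a small MAF protein that pairs with NRF2, had 146 to 182 CPM in AhR-KO against 78.4 to 94.6 CPM in WT (log2 fold change 0.99, SE 0.09, edgeR adjusted p = 7.6e-08), and its ranges at rest were 18.7 to 22.6 and 21.5 to 27.1 CPM. Sqstm1, the autophagy adaptor p62 that binds KEAP1, was higher (0.42, SE 0.12, edgeR adjusted p = 0.025) and Nfe2, a relative of NRF2 in blood cells, lower (−2.04, SE 0.25, edgeR adjusted p = 4.3e-06). The difference between LPS effects was called for Maff (1.28, SE 0.13, edgeR adjusted p = 2.2e-06) and Nfe2 (−1.85, SE 0.34, edgeR adjusted p = 0.0021). Bach1, the repressor of antioxidant response elements, fell with LPS from 89.9 to 36.7 CPM in WT and from 101 to 34.5 CPM in AhR-KO, an item chosen after its values were seen (log2 fold change −1.29 and −1.54, edgeR adjusted p = 4.1e-05 and 3.0e-06).

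Of 26 other NRF2 target genes, 3 were higher and none lower in AhR-KO without stimulation (1.83% and 4.29% of all genes), and 3 were higher and 1 lower after LPS (4.33% and 8.3%). At rest these were Ephx1 (epoxide hydrolase, log2 fold change 1.42, SE 0.19, edgeR adjusted p = 2.5e-05), Slc48a1 (a heme transporter, 0.88, SE 0.15, adjusted p = 3.7e-04) and Blvrb (biliverdin reductase B, 1.17, SE 0.27, adjusted p = 0.0065). After LPS they were Gstp1 (a glutathione transferase, 0.42, SE 0.1, edgeR adjusted p = 0.0046), Blvrb (1.04, SE 0.27, adjusted p = 0.0099) and Hmox1, the heme oxygenase (0.87, SE 0.23, adjusted p = 0.012), whose ranges of 214 to 604 CPM in WT and 400 to 1040 CPM in AhR-KO overlapped. Nqo1, the quinone reductase that is a target of both NRF2 and AhR, was lower after LPS (−0.75, SE 0.24, edgeR adjusted p = 0.04), with 15.9 to 27.2 CPM in WT and 8.45 to 20.8 CPM in AhR-KO. The median of the 26 was 0.31 at rest and 0.07 after LPS. LPS raised 9 and lowered 5 of them in WT (19.7% and 18.3% of all genes) and raised 7 and lowered 6 in AhR-KO (22.1% and 22.6% of all genes), so the counts in AhR-KO were near those of all genes. The difference between LPS effects was called lower for Ephx1 (−1.65, SE 0.28, edgeR adjusted p = 8.2e-04), Slc48a1 (−0.85, SE 0.21, adjusted p = 0.019) and Idh1 (−0.91, SE 0.24, adjusted p = 0.025).

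Of 22 other glutathione genes tested, 1 was higher and 3 lower at rest (1.83% and 4.29% of all genes), and 2 were higher and 2 lower after LPS (4.33% and 8.3%), the last near the share of all genes. Gss, glutathione synthetase, which adds glycine in the last step of synthesis, was higher in AhR-KO in both states, from 7.45 to 16 CPM against 17.1 to 21.2 CPM at rest and from 19.3 to 23.6 CPM against 36.5 to 51.6 CPM after LPS. These groups did not overlap, and the log2 fold changes were 0.64 (SE 0.15, edgeR adjusted p = 0.0068) and 1.04 (SE 0.15, edgeR adjusted p = 2.5e-05). Ggct, which breaks down γ-glutamyl peptides, was higher after LPS (0.6, SE 0.14, edgeR adjusted p = 0.005). Oplah (5-oxoprolinase) was lower in both states (−1.69, SE 0.37, adjusted p = 0.0045 and −1.79, SE 0.37, adjusted p = 0.0018 from edgeR). Chac1 (−1.88, SE 0.41, adjusted p = 0.0045) and Gpx3 (−1.8, SE 0.43, adjusted p = 0.0091) were lower at rest and Ggt5 (−1.45, SE 0.27, adjusted p = 4.7e-04) after LPS. LPS raised 5 and lowered 4 in WT and raised 6 and lowered 6 in AhR-KO, near the shares of all genes (19.7% and 18.3%, 22.1% and 22.6%). The list median for genotype was −0.01 at rest and −0.09 after LPS, and no gene of it was called for the difference between LPS effects by edgeR.

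None of 21 other thioredoxin, peroxiredoxin and superoxide genes was called by genotype at rest by edgeR (6.12% of all genes), and 2 were lower after LPS, near the 8.3% of all genes, Sesn1 (−1.49, SE 0.18, edgeR adjusted p = 2.4e-06) and Sesn3 (−0.74, SE 0.21, adjusted p = 0.019), both sestrins. The difference between LPS effects was called for Sesn1 (−1.61, SE 0.25, edgeR adjusted p = 3.5e-04) and Prdx6 (1.03, SE 0.3, adjusted p = 0.049). LPS raised 6 and lowered 5 of the 21 in WT (19.7% and 18.3% of all genes) and raised 7 and lowered 7 in AhR-KO (22.1% and 22.6%). Prdx5, chosen after its values were seen, went from 926 to 6340 CPM in WT and from 910 to 9300 CPM in AhR-KO (log2 fold change 2.78, SE 0.4, edgeR adjusted p = 6.4e-06, and 3.35, SE 0.41, adjusted p = 4.2e-07), the largest LPS rise among the tested peroxiredoxins.

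Of 8 genes of the phagocyte NADPH oxidase, the enzyme that makes superoxide, LPS raised 6 in WT and 5 in AhR-KO, where it raised 19.7% and 22.1% of all genes. Of the 8, Ncf4, a cytosolic subunit, was called by genotype, lower in AhR-KO at rest (−1.12, SE 0.12, edgeR adjusted p = 8.2e-07), against 4.29% of all genes lower at rest, and its LPS effect was larger in AhR-KO by 1.26 (SE 0.16, edgeR adjusted p = 7.0e-05). None of the 8 was called by genotype after LPS, against 12.6% of all genes. Of 9 ATF4 amino acid response genes tested, a pathway that also acts on Slc7a11, 2 were lower at rest (4.29% of all genes) and 3 were higher and 2 lower after LPS (4.33% and 8.3%). Slc7a5, a neutral amino acid transporter, was lower in both states (−1.29, SE 0.2, adjusted p = 1.4e-04 and −2.66, SE 0.21, adjusted p = 8.9e-09 from edgeR), Chac1 was the other gene lower at rest, and after LPS Slc7a3 was lower (−3.27, SE 0.83, adjusted p = 0.0092) and Trib3 (0.93, SE 0.21, adjusted p = 0.0035), Atf4 (0.47, SE 0.12, adjusted p = 0.01) and Psat1 (1.05, SE 0.34, adjusted p = 0.048) were higher. The LPS effect differed for Atf4 (0.74, SE 0.17, edgeR adjusted p = 0.012), Trib3 (1.31, SE 0.3, adjusted p = 0.011), Psat1 (1.7, SE 0.49, adjusted p = 0.047) and Slc7a5 (−1.37, SE 0.28, adjusted p = 0.0048). Of 5 AhR genes and targets tested, 3 were lower at rest and 3 lower and 2 higher after LPS (against the same shares of all genes), with Cyp1b1 lower in both states (−3.32, SE 0.74, adjusted p = 0.0053 and −2.61, SE 0.71, adjusted p = 0.014 from edgeR), Tiparp higher after LPS (0.96, SE 0.17, adjusted p = 4.3e-04), and a differing LPS effect for Ahr (3.29, SE 0.5, adjusted p = 3.7e-04) and Tiparp (1.48, SE 0.25, adjusted p = 7.8e-04).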

How the data were processed

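Polyadenylated RNA of 24 BMDM cultures was sequenced as strand-specific libraries, 6 per group. Per the labels and the study's methods, the authors demultiplexed reads with bcl2fastq 2.20.0, aligned them to mm10 with GSNAP and deposited raw counts of fragments per Ensembl 98 gene from featureCounts 2.0.1, reverse-stranded, at a mapping quality of at least 1, without fragments that overlap several genes. The deposited counts cover 55421 genes, of which 55154 carried a symbol, and 92 spike-in rows with 1 count in all were left out. Groups were taken from the labels. Library numbers run from 17 to 40 and fall into 3 runs of 8, which the labels do not call batches.

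edgeR 4.0.16 (R 4.3.3) was fitted to the 24 libraries with a coefficient per group, TMM scaling and the quasi-likelihood test with robust estimates, on the 16593 genes that filterByExpr retained. P-values were adjusted by the Benjamini-Hochberg method over all genes tested, and a gene was called at an adjusted p of at most 0.05. SE is the absolute log2 fold change divided by the square root of F. The biological coefficient of variation was 49.1%. The animals of a group come from 1 experiment, so p-values measure the spread between animals within it. Ratios of counts (pseudocount 0.5) were compared by an exact two-sided permutation test over 8 tests. Overlap between groups was read from CPM. The length slope of a library is the regression of log2 CPM (prior count 2) on log2 gene length. Promoter matches were counted in 250 bases before each RefSeq start.

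All members are named. From each pathway list, up to 4 genes with the smallest adjusted p among those called per genotype comparison were named, and any gene called for the difference between LPS effects. Psat1 falls under the latter. The genes most similar to Nfe2l2, Slc7a11, Srxn1, Gclm and Sod2 over the 24 libraries were named by Pearson r, up to 3 for each, and 1 of them is not reported here. The members and lists were chosen with earlier results of these data known. DESeq2 1.42.0, limma 3.58.1 (voom), other scaling, filters, covariates and omitted libraries were tried as alternatives. Leaving out libraries 19 and 33, and libraries 34 and 38, was chosen after seeing the data. Python 3.11.15 with numpy 2.4.6, pandas 2.3.3, scipy 1.17.1 and matplotlib 3.10.9 was used for the other steps.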

Additional observations from a re-analysis of the deposited data

Results flagged for a closer look

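In 6 of 40 combinations of member and group, 1 library lay far from the other 5, by a rule that chance meets in about 1 in 20 single combinations. The 40 share the same 24 libraries, and the 6 fall on libraries 33 and 37. They are thus not separate trials, and 6 of 40 cannot be set against that rate. Library 33 was the lowest of unstimulated WT for Keap1 (17.8 CPM) and the highest for Gclm (236 CPM), Prdx1 (1600 CPM) and Sod2 (331 CPM). Library 37 was the highest of LPS-stimulated WT for Prdx1 (4510 CPM) and Sod2 (2320 CPM). Both had the lowest gene length slope of their group, 0.17 and 0.27, and the part of the slope in these values was not tested.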

How the results depend on the processing

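Beside the 2, 2, 8 and 0 members called by genotype at rest, by genotype with LPS, by LPS within AhR-KO and for the difference between LPS effects, total library size gave 1, 1, 5 and 0. Of all genes, 6.83%, 16.9%, 52.5% and 4.83% were then called, against 6.12%, 12.6%, 44.6% and 4.3% in the main fit. The slope covariate gave 5 and 7 for genotype and 3 for the difference, where 17.1%, 35.3% and 17.3% of all genes were called. A required fold change of 2 gave 0 and 0 for genotype, against 4.48% and 8.36% of all genes. For genotype after LPS, DESeq2, limma-voom, the filter of at least 1 CPM and the run factor gave 4 each, where 16.5%, 13.3%, 15% and 18.6% of all genes were called. For the same comparison no filter and the omission of libraries 34 and 38 each gave 1, where 5.88% and 11.6% of all genes were called. For the difference, DESeq2 gave 1 (Gclc) and the run factor 1 (Slc7a11), where 6.78% and 7.24% of all genes were called.

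Signs turned with total library size for genotype without stimulation in Keap1 (−0.03) and Gsr (−0.08), for genotype after LPS in Nfe2l2 (−0.13), Slc7a11 (−0.14) and Txnrd1 (−0.05), for LPS in Gsr (WT, −0.05), Nfe2l2 (AhR-KO, −0.46) and Gclc (AhR-KO, −0.19), and for the difference in Srxn1 (−0.01). They also turned for genotype after LPS without libraries 34 and 38 in Nfe2l2 (−0.04) and Slc7a11 (−0.03) and with the filter of at least 1 CPM in Gclm (0.03), for LPS in AhR-KO in Nfe2l2 with the run factor (−0.03) and without libraries 19 and 33 (−0.14), and for the difference in Txnrd1 with the slope (0.03). Apart from Gsr in WT, none of these values was called in the main test.

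Leaving out 1 library at a time gave 1 to 2 and 1 to 3 members for genotype without stimulation and after LPS, and 0 to 1 for the difference. Of all genes, 5.08% to 6.41%, 10.4% to 13.5% and 3.34% to 4.63% were called in these omissions. Values then ran, for genotype without stimulation, from −0.09 to 0.2 for Keap1 and −0.02 to 0.05 for Gsr. For genotype after LPS they ran from −0.05 to 0.26 for Nfe2l2, −0.1 to 0.06 for Gclm and −0.03 to 0.26 for Slc7a11. For LPS in AhR-KO, Nfe2l2 ran from −0.14 to 0.18, and for the difference Prdx1 ran from −0.08 to 0.35 and Sod2 from −0.01 to 0.27. The log2 ratio of Gclm to Gclc ran from 0.12 to 0.44 and from −0.56 to −0.31 for genotype without stimulation and after LPS, and that of Nfe2l2 to Keap1 from 0.37 to 0.52 without stimulation. Srxn1 was called for genotype in both states in each of the 24 omissions. The cause of these shifts was not tested. No paired analysis was made, because each library number occurs once and the animal behind a culture is not given. The run factor pairs no cultures. Libraries 34 (WT, unstimulated) and 38 (WT, LPS), of the same run, were alone in having few Y-linked counts. Whether these or other cultures share an animal was not tested, and the fits treat all cultures as independent. For genotype, Nfe2l2 and Txnrd1 had an SE of 0.34 to 0.35, the largest among the members, and how far depth enters it was not tested.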
